A study of Mus musculus with 8 samples.

Results

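Genes that mark cortical thymic epithelial cells (cTECs) were followed across 3 sorted populations of embryonic thymic epithelial cells (TECs), beside Psmb5, a proteasome gene that cells express constitutively. Psmb11, Prss16, Enpep, Ly75, Tbata and Cd83 were the 6 cortical trait genes, chosen by symbol together with Psmb5 as 7 of the 55450 genes in the table. RNA was sequenced from CD45-EpCAM+ TECs sorted at embryonic day 17 (E17) from mice that carried tdTomato knocked into 1 allele of Ccl21a and a Venus transgene of Tnfrsf11a, the gene for RANK. Both reporters were carried by all 3 populations, which differed only in the fluorescence they were sorted on: CCL21+RANK- TECs (3 libraries), CCL21-RANK+ TECs (3 libraries), and CCL21-RANK- TECs (2 libraries). CCL21-RANK- TECs were therefore defined by the absence of both signals, not by a cortical marker. The study's checklist calls its replicates biological, and no label says whether libraries of a group came from separate embryos or from pools, so p-values measure the spread between these libraries. The libraries held 59677342, 46003149, and 55116934 counts in CCL21+RANK- TECs, 57286773, 50146758, and 42751858 in CCL21-RANK+ TECs, and 67451448 and 71625319 in CCL21-RANK- TECs. All 7 genes passed the expression filter, and the lowest count of any in a library was 647, for Cd83, so that counting error was small beside the spread between libraries.

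The thymic cortex is where immature thymocytes are positively selected on peptides that cTECs present. cTECs build a particular proteasome, the thymoproteasome, in which β5t, encoded by Psmb11, takes the catalytic site that Psmb5 (β5) fills in most cells and Psmb8 (β5i) fills in the immunoproteasome. Prss16 encodes a thymus-specific serine protease linked to peptides of MHC class II, Enpep encodes the aminopeptidase recognised as Ly51, and Ly75 encodes the endocytic receptor CD205, and the last pair serve as surface labels of cTECs in flow cytometry. Cd83 encodes a membrane protein that stabilises MHC class II on cTECs and is also used as a label of mature dendritic cells. Tbata encodes a thymus protein first described under the name SPATIAL.

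In GRCm38 with the GENCODE M21 annotation, Psmb11 (ENSMUSG00000072423) lies on chromosome 14 at 54621433 to 54629556 on the plus strand, and its principal transcript has 1 exon. Psmb5 (ENSMUSG00000022193) is its neighbour at 54614119 to 54618022 on the minus strand with 3 exons. The gap between these divergent genes was 3.41 kb in GENCODE and 7.31 kb in RefSeq, which starts Psmb11 further downstream. Prss16 (chromosome 13, 22002173 to 22009742, minus strand), Enpep (chromosome 3, 129269175 to 129332720, minus strand), Ly75 (chromosome 2, 60292103 to 60383303, minus strand), Tbata (chromosome 10, 61171954 to 61188841, plus strand), and Cd83 (chromosome 13, 43784775 to 43803132, plus strand) are spread over other places in the genome. Because Psmb11 and Psmb5 are neighbours that compete for the same place in the proteasome, the RefSeq (GRCm38.p6) windows from 250 bases before to 50 bases after their starts are shown here, at chr14:54625060-54625359 (plus strand) for Psmb11 and chr14:54617946-54618245 (minus strand) for Psmb5. Capitals mark GACGC on either strand (GCGTC on the complement), the core letters known for FOXN1, the transcription factor of TECs.
Psmb11: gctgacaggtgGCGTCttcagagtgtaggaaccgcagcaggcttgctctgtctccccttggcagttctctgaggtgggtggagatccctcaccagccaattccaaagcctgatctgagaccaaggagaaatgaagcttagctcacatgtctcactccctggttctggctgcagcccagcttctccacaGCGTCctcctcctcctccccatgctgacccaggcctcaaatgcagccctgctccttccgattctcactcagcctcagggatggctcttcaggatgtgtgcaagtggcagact
Psmb5: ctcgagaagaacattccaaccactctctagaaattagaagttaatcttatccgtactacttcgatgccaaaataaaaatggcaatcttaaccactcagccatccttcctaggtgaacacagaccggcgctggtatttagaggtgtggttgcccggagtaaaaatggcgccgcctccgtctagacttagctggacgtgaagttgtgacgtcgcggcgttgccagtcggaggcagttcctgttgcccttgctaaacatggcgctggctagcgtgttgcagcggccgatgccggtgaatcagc
The Psmb11 window held 2 matches, which began at positions -239 and -62 from the start, and the Psmb5 window held none. Of all 32851 promoter windows of the same length, 27.2% held at least 1 match and 8.15% held 2 or more. The Enpep window held 1 match, at position -8, and those of Ly75 and Tbata held none. Such matches describe letters in a window and not binding.

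As a check of the sort, Tnfrsf11a was at 111, 93.1, and 107 RPKM (counts per kilobase of summed exon length, scaled to the library total) in CCL21-RANK+ TECs, against 8.78, 9.44, and 10.3 in CCL21+RANK- and 2.62 and 2.26 in CCL21-RANK- TECs. Ccl21a, which has near-identical copies that share its reads, was at 561, 346, and 305 RPKM in CCL21+RANK- TECs, 152, 95.9, and 78.2 in CCL21-RANK+ TECs, and 6.89 and 8.88 in CCL21-RANK- TECs. Both genes were thus highest in the population named for them, and Ccl21a was also present in CCL21-RANK+ TECs. The 12 markers of medullary TECs summed to between 1287 and 1749 RPKM in CCL21+RANK- TECs, 989 and 1232 in CCL21-RANK+ TECs, and 181 and 211 in CCL21-RANK- TECs, sums led by Krt5, which went the opposite way from most of the list between CCL21+RANK- TECs and CCL21-RANK+ TECs.

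Markers of other cells moved with the populations. In CCL21-RANK+ TECs, 6 macrophage markers summed to 77.8, 21.4, and 26.6 RPKM, mostly Lyz2, whereas they reached at most 0.691 in the other 5 libraries. The sum of 8 mesenchymal markers was 152, 92.4, and 88.2 RPKM there, mostly Rgs5, and at most 10.9 elsewhere. Thymocyte markers (13 genes, led by Rag1) summed to between 10.6 and 24.7 RPKM in CCL21-RANK+ TECs, 5.50 and 13.2 in CCL21+RANK- TECs, and 3.56 and 4.07 in CCL21-RANK- TECs. B cell markers (4 genes, led by Cd79b) summed to between 4.78 and 9.89 RPKM in CCL21-RANK+ TECs and to at most 0.902 elsewhere, and endothelial markers (5 genes, led by Tek) to between 1.90 and 4.08 and to at most 0.450 elsewhere. CCL21+RANK- TECs stood apart in 4 parathyroid markers, led by Chga, which summed to 7122, 1749.8, and 1955 RPKM, against at most 24.9 in the other populations. In CCL21-RANK- TECs the parathyroid sum was 23.8 and 21.6 RPKM, and there the levels of Psmb11, Prss16, Ly75, and Cd83 overlapped those in CCL21+RANK- TECs. Whether these transcripts came from other cells in the sort or from the TECs themselves was not tested. Any part of other cells in the differences from CCL21-RANK+ TECs was not tested either. In bulk RNA, fewer cells of a type and less RNA per cell cannot be told apart.

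CCL21+RANK- TECs exceeded CCL21-RANK+ TECs in all 6 cortical trait genes, by between 5.59-fold (Enpep) and 16.7-fold (Ly75). They were called in edgeR's quasi-likelihood test, for which a call needed a fold change over 1.5 at a Benjamini-Hochberg adjusted p under 0.05, and an average of more than 1 RPKM in whichever population was higher. Of all 21451 genes tested, 15.4% (3311 genes) were called higher in CCL21+RANK- TECs. CCL21-RANK- TECs likewise exceeded CCL21-RANK+ TECs in all 6, each of them called, by between 3.80-fold (Enpep) and 18.9-fold (Ly75), against 15.1% of all genes. Between CCL21+RANK- and CCL21-RANK- TECs only Tbata among the 6 was called, higher in CCL21+RANK- TECs, against 4.35% of all genes. Psmb5 was called in none of the 3 comparisons. These comparisons share libraries and are not independent of each other. Of the 12 medullary markers, 8 were called lower in CCL21+RANK- TECs relative to CCL21-RANK+ TECs, where 15.4% of all genes were called lower, and Ccl21a and Krt5 were called higher, with a median log2 fold change of -2.31. Fezf2 (-8.62, from -9.27 to -8.23 when a library was left out) and Aire (-7.11), the regulators of self-antigen expression, were among the 8. Fezf2 held only 15 to 58 counts in CCL21+RANK- libraries. The genes were chosen with earlier results of these libraries known, and Psmb11 and Cd83 were named from them by the study, so the counts are no independent evidence of a direction.

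**Figure D1:**
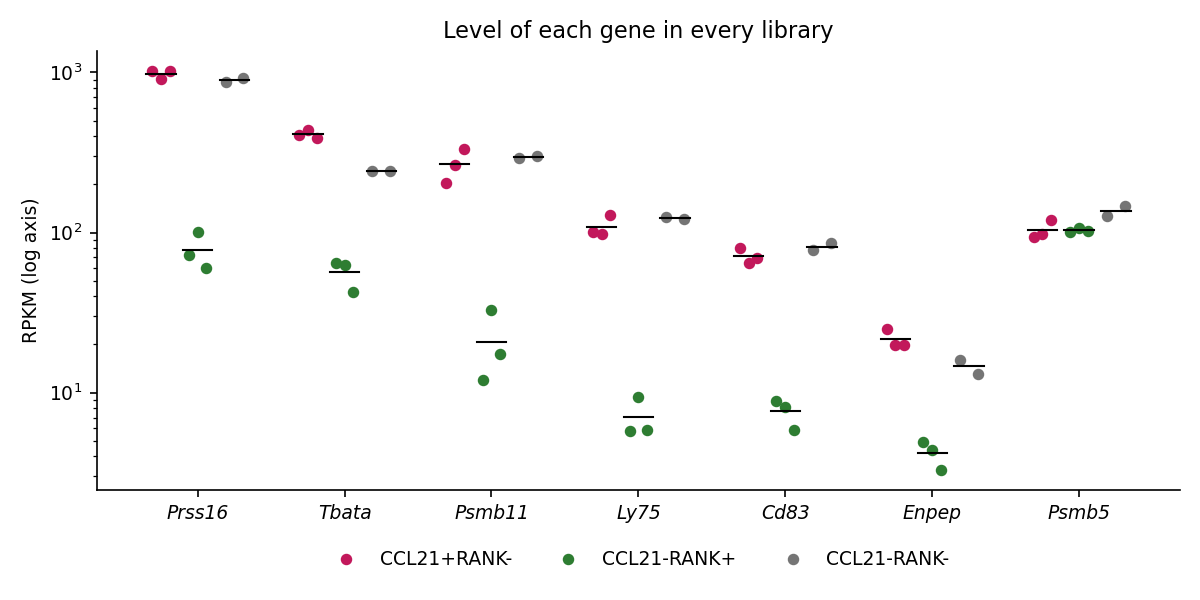
RPKM of the 6 cortical trait genes and Psmb5 on a log axis, with a point for each library and a bar at the mean of each population. For every cortical trait gene the 3 CCL21-RANK+ libraries lie below the other 5, whereas those of Psmb5 lie between 101 and 106 RPKM, within the range of CCL21+RANK- TECs (93.5 to 119).

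Psmb11, the subunit that defines the thymoproteasome, was at 203, 265, and 333 RPKM in CCL21+RANK- TECs and at 293 and 299 in CCL21-RANK- TECs. In CCL21-RANK+ TECs it was at 11.9, 32.7, and 17.5 RPKM. The first pair of populations overlapped, and the highest CCL21-RANK+ library lay far below the lowest library of either. Psmb11 had the widest spread of the 7 genes, and its ratio of the second to the first CCL21-RANK+ library was larger than that of any other member. CCL21+RANK- TECs exceeded CCL21-RANK+ TECs 13.7-fold (log2 3.78, SE 0.38, edgeR adjusted p = 2.74e-05). Psmb11 ranked 87th in CCL21+RANK-, 91st in CCL21-RANK-, and 1821st in CCL21-RANK+ TECs by mean RPKM among the 21451 genes.

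Psmb5, which fills the same catalytic site in most cells, was at 93.5, 98.5, and 119 RPKM in CCL21+RANK- TECs, 101, 106, and 102 in CCL21-RANK+ TECs, and 127 and 147 in CCL21-RANK- TECs. Libraries of the first pair of populations overlapped, and both CCL21-RANK- libraries were above them. Its log2 fold change was 0.12 between CCL21+RANK- and CCL21-RANK+ TECs (95% interval -0.11 to 0.35, edgeR adjusted p = 0.347), and -0.35 when libraries were scaled to the sum of the 14 constitutive genes of the proteasome core, of which Psmb5 is one. That scaling moved all genes alike, and Psmb5 lay 0.23 above the median of all genes on both scales. CCL21-RANK- TECs had 1.44-fold more than CCL21-RANK+ TECs (log2 0.52, interval 0.27 to 0.78, adjusted p = 0.00406), which was under the fold needed for a call. The value became -0.0071 with the scaling to the core genes, but it stayed 0.58 above the median of all genes on both scales. Psmb5 overlaps the miRNA gene Mir686 on the same strand, which held few counts in these libraries.

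Prss16 was the most abundant of the 7 genes per summed exon length in CCL21+RANK- and CCL21-RANK- TECs, whereas Psmb5 was so in CCL21-RANK+ TECs. Prss16 was at 1023, 907, and 1017 RPKM in CCL21+RANK- TECs, 865 and 920.0 in CCL21-RANK- TECs, and 72.9, 101, and 59.97 in CCL21-RANK+ TECs. The first pair of populations overlapped, and none of their libraries came near those of CCL21-RANK+ TECs. In CCL21+RANK- TECs it exceeded CCL21-RANK+ TECs 13.6-fold (log2 3.77, SE 0.22, edgeR adjusted p = 1.39e-06). Its rank by mean RPKM was 19th among the 21451 genes in both CCL21+RANK- and CCL21-RANK- TECs and 392nd in CCL21-RANK+ TECs.

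The surface genes Ly75, Cd83, and Enpep were each lowest in CCL21-RANK+ TECs, with different sizes of change. Ly75, the gene for CD205, was at 101, 97.8, and 128 RPKM in CCL21+RANK- TECs, 125 and 121 in CCL21-RANK- TECs, and 5.80, 9.37, and 5.84 in CCL21-RANK+ TECs. Its fold change was the largest of the 7 genes in both comparisons with CCL21-RANK+ TECs (log2 4.06, SE 0.23, edgeR adjusted p = 1.20e-06 for CCL21+RANK- TECs). A larger rise in CCL21+RANK- TECs was found for 35 of the 3311 genes called.

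Cd83 was at 79.6, 64.7, and 68.9 RPKM in CCL21+RANK- TECs, 77.8 and 85.7 in CCL21-RANK- TECs, and 8.84, 8.17, and 5.88 in CCL21-RANK+ TECs. Its levels overlapped in the first pair of populations, and all 5 libraries were above the CCL21-RANK+ libraries by a wide margin. CCL21+RANK- TECs had 10.1-fold more Cd83 than CCL21-RANK+ TECs (log2 3.34, SE 0.16, edgeR adjusted p = 5.07e-07). Ly75 and Cd83 are also expressed by dendritic cells, of which 8 markers summed to between 0.366 and 1.72 RPKM in the 5 libraries where both genes were high. Most of that sum was Zbtb46, and between 3 and 5 of the 8 markers were at 0 in each of these libraries. In CCL21-RANK+ TECs, where both genes were low, the sum was higher, at 6.37, 4.10, and 4.78 RPKM, of which Zbtb46 made up 3.71, 2.72, and 3.32. The part of dendritic cells in the levels of Ly75 and Cd83 was not tested.

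Enpep, the gene for Ly51, was the least abundant of the 7 per length and had the smallest change of the 6 in both comparisons with CCL21-RANK+ TECs. It was at 24.8, 19.9, and 19.8 RPKM in CCL21+RANK- TECs, 16.1 and 13.1 in CCL21-RANK- TECs, and 4.90, 4.38, and 3.31 in CCL21-RANK+ TECs. The 3 populations did not overlap. CCL21+RANK- TECs exceeded CCL21-RANK+ TECs by 2.48 on the log2 scale (SE 0.18, edgeR adjusted p = 3.75e-06), and CCL21-RANK- TECs did so by 1.93 (SE 0.19, adjusted p = 2.94e-05). The step from CCL21-RANK- to CCL21+RANK- TECs was 0.55 on the log2 scale (95% interval 0.12 to 0.98) and missed the threshold (edgeR adjusted p = 0.0998). Its adjusted p was 0.0122 in edgeR with replicate numbers as a block, and 0.0343 in DESeq2.

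Tbata was the member that set CCL21+RANK- apart from CCL21-RANK- TECs. It was at 408, 436, and 390.2 RPKM in CCL21+RANK- TECs, 241 and 243 in CCL21-RANK- TECs, and 64.4, 62.7, and 42.7 in CCL21-RANK+ TECs. The populations kept this order without overlap. Against CCL21-RANK+ TECs it was 7.94-fold higher in CCL21+RANK- TECs (log2 2.99, SE 0.18, edgeR adjusted p = 1.61e-06) and 4.65-fold higher in CCL21-RANK- TECs (log2 2.22, SE 0.19, adjusted p = 1.19e-05). CCL21+RANK- exceeded CCL21-RANK- TECs 1.71-fold (log2 0.77, SE 0.19, edgeR adjusted p = 0.0309). This last call was lost without the first or the second CCL21+RANK- library (adjusted p = 0.064 and 0.0953) and without either CCL21-RANK- library (adjusted p = 0.131 and 0.222), while the log2 fold change stayed between 0.68 and 0.84 in these 4 fits.

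**Figure D2:**
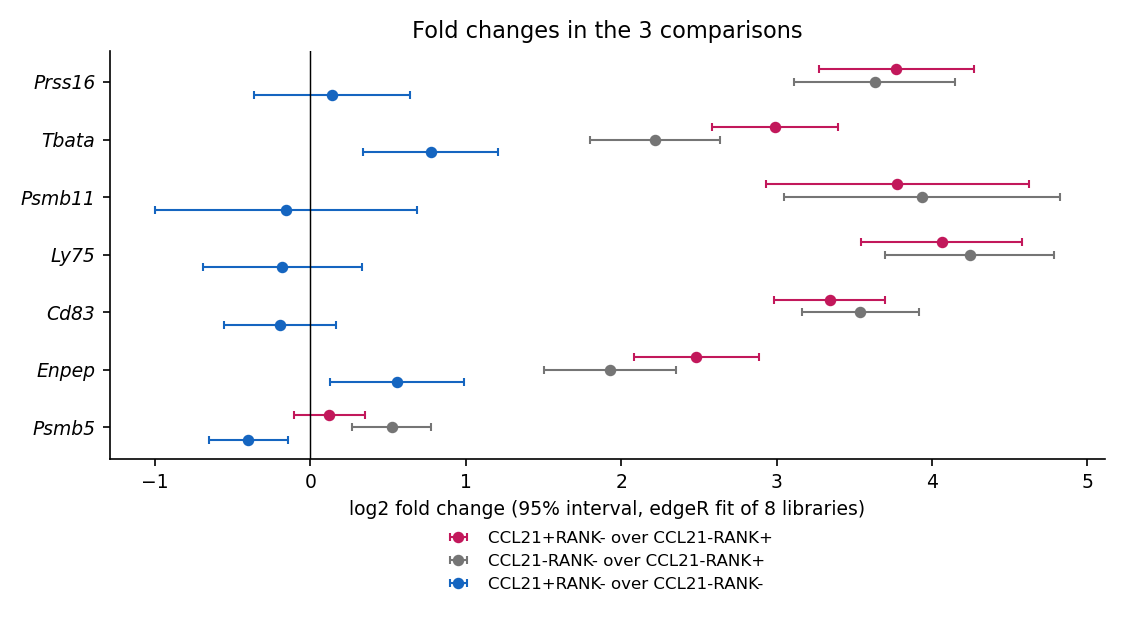
Log2 fold changes (points) with 95% intervals (bars) from the edgeR fit of all 8 libraries for the 7 genes in the 3 comparisons. The intervals of the 6 cortical trait genes against CCL21-RANK+ TECs lie between 1.5 and 4.82, and those between CCL21+RANK- and CCL21-RANK- TECs lie above 0 only for Tbata and Enpep. The Psmb5 values against CCL21-RANK+ TECs (0.12 and 0.52) turn to -0.35 and -0.0071 when libraries are scaled to the constitutive core genes, while their distances to the median of all genes (0.23 and 0.58) stay the same.

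For Psmb11, Prss16, Ly75, and Cd83, CCL21+RANK- and CCL21-RANK- TECs could not be separated with these libraries. The log2 difference of CCL21+RANK- over CCL21-RANK- TECs was -0.16 for Psmb11 (95% interval -1.0 to 0.69, edgeR adjusted p = 0.872), 0.14 for Prss16 (-0.36 to 0.64, adjusted p = 0.777), -0.18 for Ly75 (-0.69 to 0.33, adjusted p = 0.692), and -0.20 for Cd83 (-0.56 to 0.16, adjusted p = 0.501). The interval of Psmb11 thus left room for a 2-fold lower level in CCL21+RANK- TECs, whereas that of Cd83 was narrower. The sign of the Psmb11 value turned without the first CCL21+RANK- library (0.0075). For Psmb5 the value was -0.40 (interval -0.65 to -0.15, adjusted p = 0.0502), with both CCL21-RANK- libraries above all CCL21+RANK- libraries in RPKM.

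Dividing each gene by Psmb5 in the same library removes the scale of the library. Per summed exon length, Psmb11 was at 2.16, 2.70, and 2.79 times the Psmb5 level in CCL21+RANK- TECs and 2.31 and 2.04 times in CCL21-RANK- TECs, but at 0.118, 0.307, and 0.171 times in CCL21-RANK+ TECs. Per summed exon length, the thymoproteasome subunit was therefore above its constitutive counterpart in 5 libraries and below it in the 3 CCL21-RANK+ libraries, whereas per coding length it was also above it in the second of these 3. Prss16 was at 9.56 ± 1.24 times Psmb5 (SD, n = 3) in CCL21+RANK- TECs, 6.54 ± 0.391 times (n = 2) in CCL21-RANK- TECs, and 0.751 ± 0.181 times (n = 3) in CCL21-RANK+ TECs. The ratio of Tbata was 4.02 ± 0.651, 1.77 ± 0.173, and 0.549 ± 0.116 in the same order. Ratios of Tbata, Prss16, Ly75, and Enpep did not overlap between populations. Those of Psmb11 and Cd83 overlapped between CCL21+RANK- and CCL21-RANK- TECs. Psmb5 itself was higher in both CCL21-RANK- libraries than in all others. Ly75 was close to Psmb5 in CCL21+RANK- TECs, at 1.05 ± 0.0490 times its level, and at 0.902 ± 0.114 times in CCL21-RANK- TECs and 0.0676 ± 0.0178 times in CCL21-RANK+ TECs. Cd83 (0.695 ± 0.141, 0.598 ± 0.0211, and 0.0740 ± 0.0153) and Enpep (0.211 ± 0.0502, 0.108 ± 0.0265, and 0.0407 ± 0.00820) stayed under the Psmb5 level in all libraries per summed exon length. Per coding length, an alternative chosen after seeing the data, Cd83 was above Psmb5 in the 5 CCL21+RANK- and CCL21-RANK- libraries (2.68 ± 0.542 and 2.30 ± 0.0813) and under it in CCL21-RANK+ TECs (0.285 ± 0.0591), and only Enpep among the 6 was under it in all libraries (at most 0.388). On that length Prss16 was above Psmb5 in all libraries, with at least 1.41 times its level, and the ratio of Tbata in CCL21-RANK+ TECs reached 1.01. The order of a gene and Psmb5 thus depended on the length, whereas the length does not enter the comparison of populations for 1 gene.

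**Figure D3:**
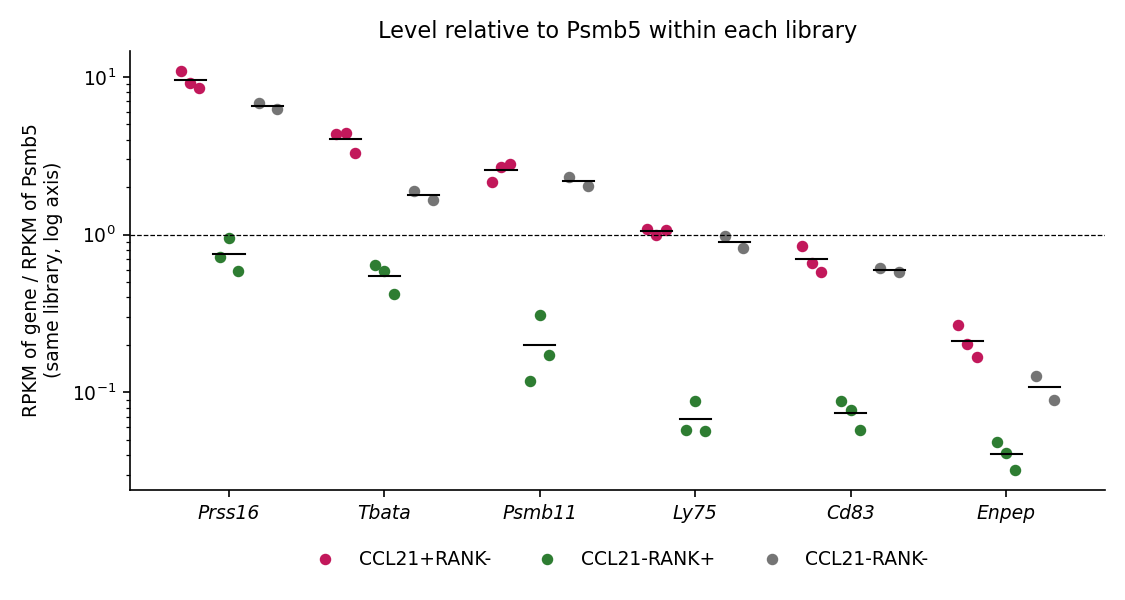
RPKM of each cortical trait gene divided by that of Psmb5 in the same library, on a log axis, with a point for each library, a bar at the mean of each population, and a dashed line where both are equal. Per summed exon length, Psmb11, Prss16, and Tbata lie above the line in 5 libraries and below it in the 3 CCL21-RANK+ libraries. Lengths of the coding part move each gene by the same factor in all libraries, and Cd83 then lies above the line in those 5 libraries.

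With Psmb5 counts as the scale of each library in the edgeR fit, CCL21+RANK- TECs exceeded CCL21-RANK+ TECs in all 6 cortical trait genes, each of them called, by between 2.37 (Enpep) and 3.96 (Ly75) on the log2 scale, against 13.0% of all genes. All 6 were also called in CCL21-RANK- over CCL21-RANK+ TECs, by between 1.40 (Enpep) and 3.74 (Ly75), against 7.17% of all genes. In CCL21+RANK- over CCL21-RANK- TECs, 2 were called, Tbata (1.18, adjusted p = 0.00715) and Enpep (0.97, adjusted p = 0.0256), against 10.9% of all genes. This scale itself moved the median log2 fold change of all genes from 0 to 0.37 in that comparison, from -0.11 to -0.23 in CCL21+RANK- over CCL21-RANK+, and from -0.062 to -0.58 in CCL21-RANK- over CCL21-RANK+ TECs. The count of 2 fell to 1 without the first or the second CCL21+RANK- library and to 0 without either CCL21-RANK- library.

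Transcripts of the 3 alternative subunits of the β5 site were set against their sum, per summed exon length. Psmb11 made up 71.1 ± 2.87% (SD, n = 3) of this sum in CCL21+RANK- TECs and 68.3 ± 1.89% (n = 2) in CCL21-RANK- TECs, but 14.5 ± 6.43% (n = 3) in CCL21-RANK+ TECs. In the single CCL21-RANK+ libraries its share was 9.06%, 21.6%, and 12.9%, and Psmb5 held most of the rest. Psmb8, the subunit of the immunoproteasome, took 14.5%, 8.13%, and 11.9% in CCL21-RANK+ TECs, above Psmb11 in the first of these libraries and below it in the others, and 0.894%, 0.825%, and 0.700% in CCL21+RANK- TECs, and 0.243% and 0.225% in CCL21-RANK- TECs. These shares depend on the length used, since the exons of Psmb11 sum to 4791 bases and its coding part to 906. Per coding length, an alternative chosen after seeing the data, Psmb11 made up 91.4 ± 1.11% in CCL21+RANK- TECs, 90.8 ± 0.714% in CCL21-RANK- TECs, and 36.2 ± 13.0% in CCL21-RANK+ TECs. In the second CCL21-RANK+ library Psmb11 then held 50.3% and Psmb5 35.1%, the reverse of their order per summed exon length. The order of the populations in the Psmb11 share held on both lengths, and the size of each share did not.

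**Figure D4:**
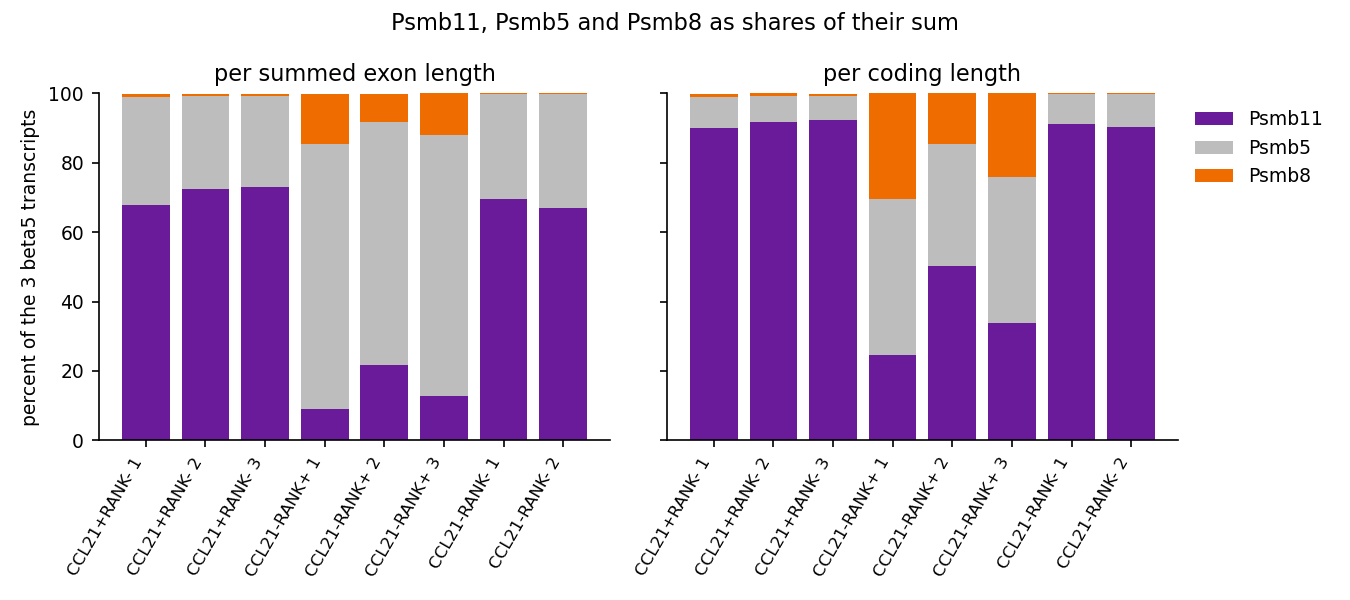
Psmb11, Psmb5, and Psmb8 as percent of their sum in each library, per summed exon length (left) and per coding length (right). Psmb11 has the largest share in the 5 CCL21+RANK- and CCL21-RANK- libraries on both lengths. In the 3 CCL21-RANK+ libraries Psmb5 has the largest share per summed exon length, and per coding length it does so in the first and the third, whereas Psmb11 leads in the second with 50.3%.

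Among the other genes of the proteasome, the constitutive core was measured through 14 genes. Of these, CCL21+RANK- TECs exceeded CCL21-RANK+ TECs in 3 that were called, namely Psmb4 (log2 1.24, SE 0.13), Psma5 (0.84, SE 0.12), and Psma7 (0.64, SE 0.10), against the 15.4% of all genes given above. The call of Psma7 was lost without the first CCL21-RANK+ library, where its value was 0.58, and also with DESeq2 size factors, upper-quartile scaling, or libraries scaled to Psmb5 or to these 14 genes. On the scale of the 14 genes only Psmb4 was still called higher, and Psmb7 was called lower. The median over the 14 genes was 0.30, and its sign turned when libraries were scaled to these genes (-0.17), although it lay between 0.41 and 0.42 above the median of all genes under all 6 scalings run. Psmb4 and Psma5 were also called in CCL21-RANK- over CCL21-RANK+ TECs, against 15.1% of all genes. There the median of the 14 was 0.38 (-0.14 when libraries were scaled to Psmb5). The call of Psma5 was lost with libraries scaled to Psmb5 or to the 14 genes. Psmb4, a subunit without catalytic activity, was at 258, 224, and 339 RPKM in CCL21+RANK-, 119, 129, and 126 in CCL21-RANK+, and 256 and 281 in CCL21-RANK- TECs. Psmb1 and Psmb2, Psmb6 and Psmb7, other beta subunits of the core, had log2 fold changes of 0.41, 0.50, 0.00092, and -0.20 in CCL21+RANK- over CCL21-RANK+ TECs and were not called.

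The inducible subunits split into opposite directions. Psmb9 (β1i) was at 43.5, 42.9, and 50.2 RPKM in CCL21+RANK- TECs, 34.4 and 38.7 in CCL21-RANK- TECs, and 10.9, 11.4, and 9.36 in CCL21-RANK+ TECs. Psmb10 (β2i) was at 229, 236, and 301 RPKM, 225 and 262, and 102, 119.5, and 110.5 in the same order. Both thus followed Psmb11, alongside which β1i and β2i are built into the thymoproteasome, and were higher in CCL21+RANK- TECs by log2 fold changes of 2.22 (SE 0.11, edgeR adjusted p = 5.72e-07) and 1.31 (SE 0.13, adjusted p = 2.26e-05) relative to CCL21-RANK+ TECs. Psmb8 (β5i) went the other way, with 2.67, 3.03, and 3.19 RPKM in CCL21+RANK- TECs, 1.02 and 1.01 in CCL21-RANK- TECs, and 19.1, 12.3, and 16.2 in CCL21-RANK+ TECs (log2 -2.29, SE 0.15, adjusted p = 2.54e-06). Psme1 and Psme2, the subunits of the PA28 activator, were also lower there than in CCL21-RANK+ TECs (log2 -2.22 and -1.02), so that 2 of the 5 inducible genes were called higher and 3 lower, where 15.4% of all genes were called lower. The same 2 genes were called higher and the same 3 lower in CCL21-RANK- over CCL21-RANK+ TECs, where 14.4% of all genes were called lower, with log2 fold changes of 1.91 for Psmb9, 1.25 for Psmb10, -3.84 for Psmb8, -3.73 for Psme1, and -1.39 for Psme2. CCL21+RANK- exceeded CCL21-RANK- TECs in Psmb8 (log2 1.54, SE 0.18, edgeR adjusted p = 0.000873) and Psme1 (1.5, SE 0.14, adjusted p = 0.000326), against 4.35% of all genes. With libraries scaled to Psmb5, 4 of the 5 inducible genes were called higher in that comparison, against 10.9% of all genes. Psmb8 is also expressed by blood cells, whose markers moved with it as given above, and their part in its level was not tested.

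**Figure D5:**
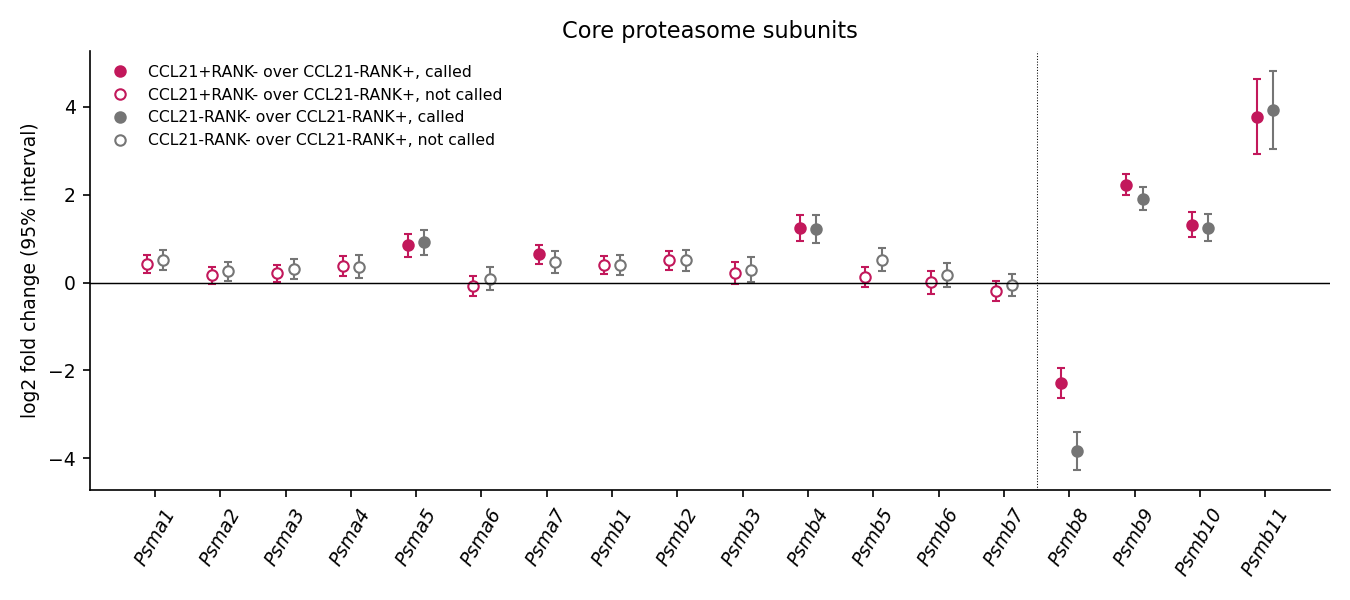
Log2 fold changes with 95% intervals of the 14 constitutive core genes (left of the dotted line) and the 4 alternative catalytic subunits (right), for CCL21+RANK- and CCL21-RANK- over CCL21-RANK+ TECs. Filled points were called. The constitutive genes lie between -0.20 (Psmb7) and 1.24 (Psmb4) and shift down, some below 0, when libraries are scaled to their own sum, whereas Psmb9, Psmb10, and Psmb11 lie above and Psmb8 below in both comparisons. Psmb10 (1.31 and 1.25) lies close to Psmb4 (1.24 and 1.22).

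Further genes of cTECs moved with the 6. CCL21+RANK- TECs exceeded CCL21-RANK+ TECs in all 12 on a list of other cortical TEC genes, each of them called, against 15.4% of all genes, with a median log2 fold change of 2.48, where the median of all tested genes was -0.11. The study named Cxcl12, Ackr4, and Pax1 from these same libraries, so the list is not independent evidence of its direction. Cxcl12, a chemokine of stromal cells, had the largest change, with 87.0, 82.3, and 86.9 RPKM in CCL21+RANK- TECs, 94.99 and 106 in CCL21-RANK- TECs, and 3.42, 7.87, and 4.25 in CCL21-RANK+ TECs (log2 4.14, SE 0.32, edgeR adjusted p = 5.00e-06). Ctsl, the gene for the lysosomal protease cathepsin L, followed with 1480.5, 1114, and 1305 RPKM in CCL21+RANK-, 707 and 800.1 in CCL21-RANK-, and 109.7, 159, and 100.2 in CCL21-RANK+ TECs (log2 3.51, SE 0.23, adjusted p = 2.47e-06). The atypical chemokine receptor gene Ackr4 changed by 3.48, and Ccl25, whose chemokine attracts thymocyte progenitors, by 2.81 on the log2 scale. Dll4, the Notch ligand that commits progenitors to the T lineage, changed by 2.74, the cytokine gene Il7 by 2.12, and Kitl by 2.34. The transcription factor gene Pax1 changed by 2.51, Slc46a2 by 1.86, and the keratin genes Krt18 and Krt8 by 2.44 and 1.37.

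Foxn1, the transcription factor gene that all TECs need, changed least on this list. It was at 85.4, 93.2, and 105 RPKM in CCL21+RANK- TECs, 82.2 and 85.4 in CCL21-RANK- TECs, and 54.5, 54.9, and 50.7 in CCL21-RANK+ TECs (log2 0.94, SE 0.11, edgeR adjusted p = 5.70e-05). When libraries were scaled to the constitutive core genes its value was 0.47 (adjusted p = 0.00557), under the fold needed for a call, as the median of all genes moved from -0.11 to -0.58, and it lay 1.06 above that median on the first scale and 1.05 on the second. The other 11 genes were still called. In CCL21-RANK- over CCL21-RANK+ TECs all 12 were again called higher, against 15.1% of all genes, with a median of 2.60 on the log2 scale. Foxn1 was not called there when libraries were scaled to Psmb5 (0.25) or to the core genes (0.24), yet it lay 0.83 above the median of all genes on each of these scales. Between CCL21+RANK- and CCL21-RANK- TECs the median of the 12 was -0.086, and only Dll4 was called, at 58.5, 71.6, and 90.2 RPKM against 110.0 and 119 (log2 -0.64, SE 0.15, adjusted p = 0.0239). It was lower in CCL21+RANK- TECs, as were 3.66% of all genes tested, and its call was lost without the first or the second CCL21+RANK- library or either CCL21-RANK- library, with values from -0.75 to -0.51 over all libraries left out in turn. With libraries scaled to Psmb5, Dll4 was not called, Il7 and Ctsl were called with the higher level in CCL21+RANK- TECs, and with DESeq2 size factors Ctsl was called higher beside Dll4.

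Across the 8 libraries the 6 cortical trait genes were compared by the distance between their log2 profiles, each centred on its mean. The closest pair was Psmb11 and Ly75 (distance 0.71), followed by Prss16 and Cd83 (0.72) Enpep and Tbata (0.74), and Prss16 and Ly75 (0.76), which had the highest correlation of any pair (0.996). Enpep and Tbata were both higher in every CCL21+RANK- than in every CCL21-RANK- library, whereas Psmb11 and Ly75 overlapped there. Psmb5 was between 3.00 and 5.37 away from each of the 6. Of 12543 genes compared, those nearest to Psmb11 were Klf15, Syngr1, and Abat, and those nearest to Ly75 were Mmp2, Klf15, and Syngr1, so that these profiles shared 2 neighbours. Prss16 was nearest to Lix1l, Cdh4, and Adamts6, and Cd83 to Lix1l, Efemp2, and Nkain4. Tbata was nearest to Cd274, which encodes PD-L1, and to Clic5 and Shank2, and Enpep to Zbtb4, Vldlr, and Lama3. Psmb5 had Klhdc2, Naca, and Ccnh beside it, at distances of 0.11 to 0.16. Correlations with these neighbours ranged from 0.976 to 0.998 over the 8 libraries, which share the contrast of the 3 CCL21-RANK+ libraries with the other 5 for the 6 cortical trait genes but not for Psmb5.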

How the data were processed

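The authors deposited expected counts per gene for 8 libraries, estimated with RSEM, which divides reads that match several genes. The submitters' processing notes name bcl2fastq 2.20, Trimmomatic, STAR 2.5.1, RSEM 1.3.1, and mm10. Between 4.47% and 5.94% of the deposited values per library were not whole numbers. Counting by strand is not given in the sources used here, and exons of Ly75 overlap an antisense gene, Gm13571.

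Expected counts were rounded to integers for edgeR 4.0.16 in R 4.3.3 (filterByExpr, TMM, quasi-likelihood test, Benjamini-Hochberg adjustment over 21451 genes) in a single fit of the 3 groups. For the comparison relative to Psmb5, its counts replaced the library size. RPKM used the library total and summed exon lengths of GENCODE M21, to which all 55450 identifiers matched. The noncoding genes Gm26917 and Gm42418 took 8.36% to 23.2% of a library, which lowers the RPKM of the others. Replicates differed by more than sampling noise (chi-square per gene from 77.4 to 275). Promoters came from RefSeq (GRCm38.p6), which matched 5 of the 7 genes. Nearest genes were the 3 with the smallest Euclidean distance in centred log2 CPM (prior count 2), leaving out predicted genes, pseudogenes, and genes under a mean RPKM of 1 in every group. The text names all members, other cortical genes, and inducible subunits, and in other lists the largest changes called. Aire was named for its role instead, although Tnfrsf11b (log2 -8.53) and Cd80 (-7.45) fell further in CCL21+RANK- relative to CCL21-RANK+ TECs. Psmb1, Psmb2, Psmb6, and Psmb7 were added after their values were seen. Members and lists were chosen with earlier results of these data known. The script was tested on simulated data. Alternatives were DESeq2 1.42.0, other scalings and filters, a replicate block, and each library left out. Figures were drawn with matplotlib 3.10.9.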

Additional observations from a re-analysis of the deposited data

How the results depend on the processing

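The counts of 6 cortical trait genes called against CCL21-RANK+ TECs, absolute and relative to Psmb5, stayed at 6 under every alternative run. Between CCL21+RANK- and CCL21-RANK- TECs the count of 1 became 2 with the replicate block and in DESeq2, and ranged from 0 to 1 when a library was left out. The count of 2 relative to Psmb5 became 1 when libraries were scaled to the constitutive core genes, was 3 with the replicate block, and ranged from 0 to 2 when a library was left out. The Psmb5 log2 fold change of CCL21+RANK- over CCL21-RANK- TECs passed an adjusted p of 0.05 in 7 of 18 alternatives. Among them were fits without Gm26917 and Gm42418 (-0.38), without an expression filter (-0.40), with the replicate block (-0.43), with only the libraries compared (-0.38), and in DESeq2 (-0.35). This Psmb5 value ranged from -0.45 to -0.33 when a library was left out. Signs turned for Psmb5 against CCL21-RANK+ TECs with the scale of the constitutive core genes, of which it is one (-0.35 for CCL21+RANK- and -0.0071 for CCL21-RANK- TECs), for Psmb5 in CCL21+RANK- over CCL21-RANK+ TECs with at least 10 counts in every library (-0.013), and for Psmb11 between CCL21+RANK- and CCL21-RANK- TECs without the first CCL21+RANK- library (0.0075, range -0.28 to 0.0075 when a library was left out). On the scale of the core genes the value of -0.35 passed an adjusted p of 0.05 in edgeR (0.0104) without being called. The scale of the core genes moved all genes alike, and Psmb5 stayed 0.23 and 0.58 above the median of all genes. The cause of the other changes was not tested. Enpep in CCL21+RANK- over CCL21-RANK- TECs passed an adjusted p of 0.05 with the replicate block (0.0122), without an expression filter (0.0327), in DESeq2 (0.0343), and with only the libraries compared (0.041). Ratios to Psmb5 per coding length kept the order of the populations.

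What libraries of equal replicate number share is not given in the labels used here. Between CCL21+RANK- and CCL21-RANK+ TECs the deviations of libraries with equal numbers correlated at 0.126, 0.0485, and 0.0707, and each correlated best with its own number. Equal numbers correlated at -0.0528 and -0.117 between CCL21+RANK- and CCL21-RANK- TECs, and at -0.0519 and -0.0411 between CCL21-RANK+ and CCL21-RANK- TECs. With 2 CCL21-RANK- libraries, whose deviations mirror each other, these values cannot decide whether equal numbers were collected together. The replicate block moved the genes called from 6618 to 6617 (CCL21+RANK- over CCL21-RANK+), from 6332 to 6324 (CCL21-RANK- over CCL21-RANK+), and from 1720 to 1913 (CCL21+RANK- over CCL21-RANK-). CCL21-RANK- TECs had 2 libraries, and the effect of depth or of more libraries on the calls was not tested.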

Other observations

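Of the 17 genes of the 19S regulatory particle, which recognises and unfolds substrates for the proteasome core, CCL21+RANK- TECs exceeded CCL21-RANK+ TECs in 4 that were called by edgeR's quasi-likelihood test, with Psmd7 (log2 0.88, adjusted p = 9.92e-05) and Psmc2 (0.77, adjusted p = 0.00011) the largest, against 15.4% of all genes, and the call of Psmd11 (0.66) was lost without the first CCL21-RANK+ library. The median of the 17 was 0.40 on the log2 scale, and -0.073 when libraries were scaled to the constitutive core genes, which moved all genes alike, so that it stood 0.51 above the median of all genes on both scales. With libraries scaled to Psmb5, 2 of the 17 were called higher, against 13.0% of all genes. With the scale of the core genes all 4 calls were lost and 3 other genes were called lower. In CCL21-RANK- over CCL21-RANK+ TECs 3 of the 17 were called higher, against 15.1% of all genes, with Psmd7 the largest (0.86, adjusted p = 0.000241). Psmd4 and Psmd11 kept their calls there in 5 and 4 of 8 fits with a library left out. With libraries scaled to Psmb5 or to the core genes, 0 of the 17 were called higher there and 2 were called lower. Among the 5 assembly factors of the core, where 15.4% of all genes were called in each direction, Psmg4 was higher (0.62, adjusted p = 0.00911) and Psmg2 lower (-0.64, adjusted p = 0.0438) in CCL21+RANK- TECs relative to CCL21-RANK+ TECs. The call of Psmg4 was lost with DESeq2 size factors, upper-quartile scaling, or libraries scaled to Psmb5 or to the core genes, and without the second CCL21+RANK- or the third CCL21-RANK+ library, and that of Psmg2 without any of 7 libraries. In CCL21-RANK- over CCL21-RANK+ TECs Psmg4 was also called higher (0.95), against 15.1% of all genes, but not with libraries scaled to Psmb5.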
